A study of Mus musculus with 170 samples.

Results

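Adrenomedullin (Adm) and adrenomedullin 2, also called intermedin (Adm2), are secreted peptides that signal through a receptor of several parts. The calcitonin receptor-like receptor, encoded by Calcrl, is the shared core, and a receptor activity-modifying protein (Ramp1, Ramp2 or Ramp3) carries it to the cell surface and sets which peptide it prefers. These 6 genes were chosen by name and all 6 are present among the 40549 gene rows of the table. They were selected on their measured levels in these cells, namely the ligands in cardiomyocytes (CMs) of both genotypes and the receptor genes in control endothelial cells, within each batch. Their levels and differences are therefore descriptions and were not tested.

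Single cells were picked by hand from the dissected ventricular part of C57BL/6 mouse hearts at embryonic day 9.5. Control hearts were Dgcr8 loxP/loxP; Rosa26 mT/mG/+ without Cre and are labelled wild type. Conditional knockout (cKO) hearts had the same alleles and also carried Mesp1 Cre/+. Cre made from the Mesp1 locus, active in early cardiovascular progenitors, deleted Dgcr8, a partner of Drosha in microRNA processing. Libraries of both genotypes were sequenced in 2 batches. The labels name no embryo, so each genotype counted as 1 sample and cells were not replicates. All errors given are standard deviations across cells, and each share has an exact Clopper-Pearson 95% interval, which reflects counting error alone. Where a count was 0, the limit given is instead 3 cells of the total.

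Adrenomedullin widens blood vessels and is needed for the growth of blood and lymphatic vessels, and mouse embryos without Adm, Calcrl or Ramp2 die around midgestation with cardiovascular defects. Calcrl with Ramp2 or Ramp3 forms adrenomedullin receptors, whereas Calcrl with Ramp1 forms the receptor for calcitonin gene-related peptide. Adm2 can act on all of these pairs. The receptors couple mainly to the stimulatory G protein and raise cyclic AMP. Adm is a textbook target of hypoxia-inducible factors, and Adm2 has been linked to ATF4, a factor of the amino acid and unfolded protein stress response.

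The table held 143 cells, 74 control and 69 cKO, as length-corrected transcript abundance (TPM, scaled to the same sum in every cell), a unit that keeps no read depth. A median of 8694 genes per cell had a TPM above 0, with a range of 2063 to 14139. Cells fell into 5 clusters by 55 marker genes, none of them one of the 6 genes. The CM-like cluster of 94 cells held 28 control and 66 cKO cells and carried 15 of 15 CM markers. The endothelial-like cluster of 21 cells carried 13 of 13 endothelial markers and 4 of 14 mesenchymal markers, and all of its cells were control. The epicardial-like cluster (13 cells) carried 6 of 6 epicardial markers and 8 of 14 mesenchymal markers. Epicardial-like cells and erythroid-like cells (5) were also control only, and 10 cells led by mitochondrial transcripts stayed unnamed. Since cells were picked by hand, how many endothelial cells the cKO heart held cannot be told apart from which cells were picked. Dgcr8 itself was at 2.44 ± 2.84 (SD, n = 28 cells) in control and 1.69 ± 2.47 (SD, n = 66 cells) in cKO CM-like cells on the log2(TPM + 1) scale. The difference between cKO and control was -0.20 in batch 1 and -1.17 in batch 2. These gene-level values do not separate the floxed part of the gene from the rest. Xist, transcribed from the X chromosome that is silenced in female cells, reached 1 TPM in 63 of 66 cKO and 0 of 28 control CM-like cells, and the Y-linked gene Ddx3y in 0 of 66 cKO and 19 of 28 control CM-like cells. Genotype and embryo sex therefore cannot be told apart in any comparison of cKO with control CM-like cells.

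The promoters of both ligands and of the receptor core are shown because the ligands differed between genotypes and the receptor between cell classes. RefSeq promoters on GRCm38.p6 were given for 5 of 6 genes, not for Ramp2. Each was searched over 300 bases, 250 before the start site and 50 after it, on both strands. The letters searched were the hypoxia response cores ACGTG and GCGTG and the ATF4 composite core TGATGNAA, with no overlap between matches here. The lines below run 5′ to 3′ on the gene's strand up to base 30 after the start, with matches in capitals (CACGC is GCGTG read on the other strand). They cover chr7:110627407-110627686 (plus strand) for Adm, chr15:89322470-89322749 (plus strand) for Adm2 and chr2:84425237-84425516 (minus strand) for Calcrl.
Adm: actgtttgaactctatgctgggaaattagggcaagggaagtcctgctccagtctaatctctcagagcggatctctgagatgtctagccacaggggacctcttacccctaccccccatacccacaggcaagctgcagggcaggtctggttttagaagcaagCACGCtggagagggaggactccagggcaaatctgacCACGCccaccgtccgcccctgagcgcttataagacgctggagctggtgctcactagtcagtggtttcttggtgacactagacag
Adm2: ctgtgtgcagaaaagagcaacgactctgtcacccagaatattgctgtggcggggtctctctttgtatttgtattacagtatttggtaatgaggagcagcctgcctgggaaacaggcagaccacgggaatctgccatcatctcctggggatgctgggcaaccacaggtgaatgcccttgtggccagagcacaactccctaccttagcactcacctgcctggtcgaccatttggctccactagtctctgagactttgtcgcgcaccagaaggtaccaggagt
Calcrl: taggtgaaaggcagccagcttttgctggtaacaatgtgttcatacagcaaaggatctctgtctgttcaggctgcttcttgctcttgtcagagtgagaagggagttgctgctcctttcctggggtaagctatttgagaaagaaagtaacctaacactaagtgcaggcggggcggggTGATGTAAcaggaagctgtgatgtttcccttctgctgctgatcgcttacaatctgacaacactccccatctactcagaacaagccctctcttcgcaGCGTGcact

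The Adm window held GCGTG 2 times, with matches that begin 90 and 54 bases before the start site. The Adm2 window held none of the letters searched. The Calcrl window held GCGTG once, 22 bases into the transcript, and TGATGNAA once, 75 bases before the RefSeq start site. The GENCODE span of Calcrl begins further upstream, at 84425411 on the minus strand, so the TGATGNAA match lies inside that span. Among the other windows, Ramp3 held GCGTG 2 times and Ramp1 held no match. Of 32851 mouse promoter windows of this length, 43.8% held ACGTG or GCGTG and 3.97% held TGATGNAA, so a match to a hypoxia core is common and is a description of the letters alone.

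In the GENCODE annotation of GRCm38, Adm spans 7:110627661-110629820 with at most 4 exons per transcript, and Adm2 spans 15:89322720-89324731 with 3. Calcrl (2:84330626-84425411, minus strand), Ramp1 (1:91179822-91225196), Ramp2 (11:101246028-101259546) and Ramp3 (11:6658521-6677475) are longer genes. Ramp2 overlaps Vps25 on the same strand, so transcript assignment could share reads between them. Vps25, a sorting complex subunit, was at 7.79 ± 0.91 (SD, n = 21) in endothelial-like and 6.05 ± 2.69 (SD, n = 28) in control CM-like cells on the log2(TPM + 1) scale, a far smaller gap than that of Ramp2 below. The antisense gene Gm28863 overlaps Adm, and reads of an unstranded library cannot be told apart between such partners. Gm28863 reached 1 TPM in 1 of 28 control and 0 of 66 cKO CM-like cells. In endothelial-like cells it did so in 1 of 21, at 164 TPM.

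Adm was the ligand with the higher levels and was higher in cKO CM-like cells in both batches. In batch 1, Adm ranged from 0 to 1.56 TPM in the 19 control cells, with a median of 0.308. The 33 cKO cells of batch 1 ranged from 0 to 518 TPM around a median of 37.3. Control cells were thus low throughout batch 1, and 22 of 33 cKO cells lay above the highest of them, the lowest of those 22 at 9.20 TPM.

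In batch 2 the genotypes overlapped more. The 9 control cells ranged from 0 to 132 TPM with a median of 16.9, and the 33 cKO cells from 0 to 1030 TPM with a median of 133. Above the highest control cell of that batch lay 17 of 33 cKO cells. Most control cells of batch 2 therefore carried Adm at levels not seen in any control CM-like cell of batch 1.

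On the log2(TPM + 1) scale the mean Adm level was 5.16 ± 3.18 (SD, n = 66 cells) in cKO and 1.56 ± 2.16 (SD, n = 28 cells) in control CM-like cells, a difference of 3.61. Within batches the difference was 3.98 in batch 1 (4.38 against 0.40) and 1.95 in batch 2 (5.95 against 4.00). The pooled difference stood at rank 13 of the 15119 genes with a TPM above 0 in more than 10 of these cells. Adm was chosen on these levels, so its rank is a description. The median difference over the 15119 genes was 0.04, with 0.17 in batch 1 and -0.21 in batch 2.

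The share of cells with Adm at 1 TPM or more was 75.8% of cKO CM-like cells (50 of 66, interval 63.6 to 85.5%) and 35.7% of control CM-like cells (10 of 28, interval 18.6 to 55.9%). At any TPM above 0 the shares were 90.9% and 67.9%. The gap in shares lay mostly in batch 1. At 1 TPM or more the shares were 69.7% (cKO) and 15.8% (control) in batch 1, and 81.8% and 77.8% in batch 2. At any TPM above 0 they were 93.9% and 57.9% in batch 1, and 87.9% and 88.9% in batch 2. Very small values were more frequent in batch 1: a median of 28.1% of detected genes per cell were below 1 TPM in batch 1 and 13.7% in batch 2. The median number of detected genes in CM-like cells was 8458 (control) and 9845 (cKO) in batch 1, and 9826 and 7786 in batch 2. The median share of mitochondrial transcripts in those cells was 6.30% (control) and 3.19% (cKO) in batch 1, and 6.09% and 2.77% in batch 2. The part of these measures in the Adm difference was not tested, and sex differed with genotype in the same cells.

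Adm2 was listed at 0 in all 28 control CM-like cells. With 0 of 28, a share as high as 10.7% remains possible. It was above 0 in 27 of 66 cKO CM-like cells (40.9%, interval 28.95 to 53.7%), 14 of 33 in batch 1 and 13 of 33 in batch 2. Of those 27 cells, 22 were at 10 TPM or more, with maxima of 217 TPM in batch 1 and 265 TPM in batch 2. In the other 5, 4 cells of batch 1 were below 1 TPM, the lowest at 0.315 TPM, and 1 cell of batch 2 was at 3.40 TPM. Most cKO cells lay at 0 together with the controls.

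The mean Adm2 level was 2.02 ± 2.81 (SD, n = 66 cells) in cKO CM-like cells on the log2(TPM + 1) scale, 1.92 in batch 1 and 2.11 in batch 2, against 0 in control. No fold is given because the control group is listed at 0 and the size of the difference depends on the pseudocount. Unlike Adm, Adm2 differed little between batches.

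**Figure D1:**
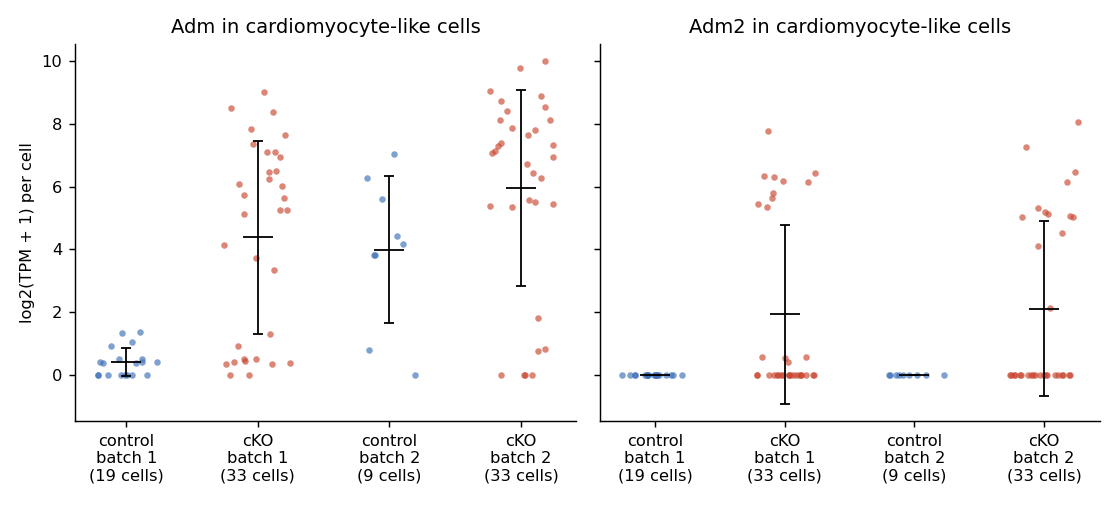
Level of Adm (left) and Adm2 (right) in each CM-like cell, in log2(TPM + 1) on the vertical axis, by genotype and batch. Points are cells, the long dash is the mean and bars are 1 SD across cells. Control cells of batch 1 stay at or below 1.56 TPM of Adm, control cells of batch 2 reach 132 TPM, and Adm2 is at 0 in every control cell.

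Adm and Adm2 were not confined to the same cells. At 1 TPM or more, 18 of 66 cKO CM-like cells (27.3%) carried both ligands, 32 (48.5%) carried Adm without Adm2, 5 (7.58%) carried Adm2 without Adm and 11 (16.7%) carried neither. Among control CM-like cells, 10 of 28 carried Adm alone and 18 carried neither. The Adm level was alike in cKO cells with and without Adm2, at 5.16 ± 2.96 (SD, n = 23) and 5.17 ± 3.33 (SD, n = 43) on the log2(TPM + 1) scale. Over the 66 cKO CM-like cells, all from 1 sample and 2 batches, Pearson's r between both ligands was -0.07.

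**Figure D2:**
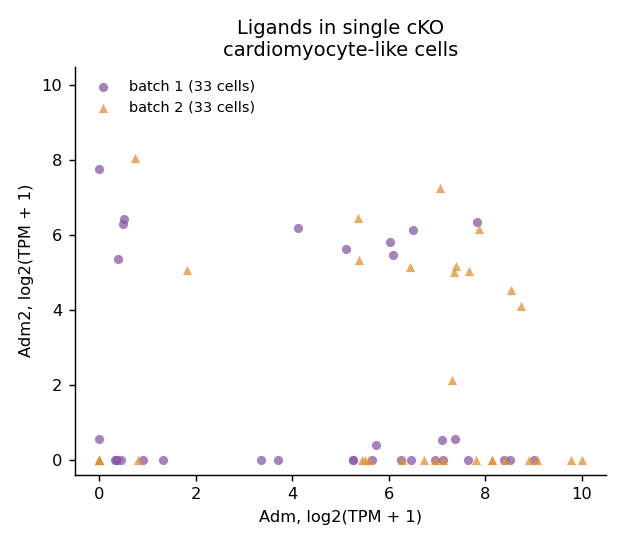
Adm (horizontal) against Adm2 (vertical) in each of the 66 cKO CM-like cells, both in log2(TPM + 1), with circles for batch 1 and triangles for batch 2. The 18 cells with both ligands at 1 TPM or more lie away from both axes, and 32 cells with Adm alone lie along the bottom.

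Adm was also higher in batch 2 than in batch 1 within each named class that both batches filled. The difference between batches was 3.60 in control CM-like, 1.57 in cKO CM-like, 1.68 in endothelial-like and 4.65 in epicardial-like cells, in log2(TPM + 1). The unnamed control cells went the other way, at 0.22 in batch 1 (n = 5) and 0 in batch 2 (n = 2). Among all genes compared within each class, these values stood at percentiles 99.7, 99.3, 96.1 and 99.9. The median batch difference of 19 other hypoxia targets was 0.63, -0.03, 0.15 and 0.92 in the same order. Over all genes compared it was 0.58, -0.06, -0.13 and 0.18. The batch is that of sequencing, the embryos in each are not named, and its part in the Adm levels was not tested beyond the within-batch values.

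Outside the CM-like class, Adm was at 3.49 ± 3.34 (SD, n = 13) in epicardial-like, 2.71 ± 3.72 (SD, n = 5) in erythroid-like and 1.78 ± 2.61 (SD, n = 21) in endothelial-like control cells. These means and that of control CM-like cells all lie within 1 SD of each other. They mix batches unevenly: all 5 erythroid-like cells but only 9 of 28 control CM-like cells were of batch 2. Within batch 2 the means were 4.92 in epicardial-like, 4.00 in control CM-like, 2.71 in erythroid-like and 2.34 in endothelial-like cells. In batch 1 they were 0.27 in epicardial-like, 0.40 in control CM-like and 0.66 in endothelial-like cells. In endothelial-like cells Adm reached 249 TPM in 1 cell and 1 TPM or more in 8 of 21. Gm28863, antisense to Adm, was at 164 TPM in 1 endothelial-like cell. Whether that was one of the cells with Adm is not given here. Adm2 did not reach 1 TPM in any endothelial-like cell, while 3 of 13 epicardial-like cells held it, at 1.14, 37.2 and 45.4 TPM.

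Calcrl, the receptor core, was found in every endothelial-like cell and was low nearly everywhere else. The 21 endothelial-like cells ranged from 45.4 to 325 TPM with a median of 121. Of the 28 control CM-like cells, 3 reached 1 TPM, and of the 66 cKO CM-like cells 1 did. A single control CM-like cell of batch 2 stood at 114 TPM. That cell carried 11 of 13 endothelial and 15 of 15 CM markers at 1 TPM or more, and also held Ramp2 at 533 TPM. Whether it was 1 cell or several picked together was not tested. Without it, no control CM-like cell passed 4.40 TPM of Calcrl or 6.54 TPM of Ramp2, and the endothelial-like cells lay entirely above all other CM-like cells for both genes.

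The mean Calcrl level was 7.00 ± 0.77 (SD, n = 21) in endothelial-like and 0.51 ± 1.34 (SD, n = 28) in control CM-like cells on the log2(TPM + 1) scale, a difference of 6.48 (6.78 in batch 1, 5.95 in batch 2). Leaving out the cell with both marker sets lowered the CM-like mean to 0.28 ± 0.52 (SD, n = 27). In cKO CM-like cells the mean was 0.16 ± 0.44 (SD, n = 66), and the difference from control, -0.35, was smaller than the spread across cells. Calcrl was below 1 TPM in all 13 epicardial-like cells and reached at most 9.12 TPM in the 5 erythroid-like cells.

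Ramp2, the partner that gives Calcrl its preference for adrenomedullin, followed Calcrl and was the more abundant of the pair per transcript length. It ranged from 228 to 1062 TPM in the 21 endothelial-like cells around a median of 599.9. In each of these cells the TPM of Ramp2 exceeded that of Calcrl, by a ratio of 1.63 to 13.3 with a median of 5.6. The mean level was 9.20 ± 0.52 (SD, n = 21) against 0.57 ± 1.79 (SD, n = 28) in control CM-like cells on the log2(TPM + 1) scale. The difference of 8.63 (9.22 in batch 1, 8.01 in batch 2) ranked 1 of 13130 genes between these classes. Ramp2 was not a marker, but it was chosen on these levels, so its rank is a description.

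In cKO CM-like cells Ramp2 reached 1 TPM in 10 of 66 and at most 23.6 TPM. Its difference from control was -0.20 pooled, with opposite signs in batch 1 (0.17) and batch 2 (-0.79). Scattered Ramp2 outside both main classes included 5 of 13 epicardial-like cells, up to 55.1 TPM, and 2 of 5 erythroid-like cells, up to 250.1 TPM. None of those epicardial-like cells had Calcrl at 1 TPM or more.

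Ramp1, the partner for calcitonin gene-related peptide, had the opposite distribution. It ranged from 0 to 97.6 TPM in control CM-like cells with a median of 2.04, and from 0 to 296 TPM in cKO CM-like cells with a median of 2.42. Endothelial-like cells did not pass 2.89 TPM, and 1 of 21 reached 1 TPM. About as many CM-like cells of each genotype carried Ramp1 at 1 TPM or more, 14 of 28 control (interval 30.6 to 69.4%) and 36 of 66 cKO (interval 41.8 to 66.9%).

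The mean Ramp1 level was 0.19 ± 0.48 (SD, n = 21) in endothelial-like and 2.36 ± 2.44 (SD, n = 28) in control CM-like cells on the log2(TPM + 1) scale, a difference of -2.17 (-2.05 in batch 1, -2.25 in batch 2). Between genotypes it differed by 0.64 (3.00 ± 2.96 in cKO, SD, n = 66), less than the spread across cells. Of the CM-like cells with Ramp1 at 1 TPM, 36 of 36 cKO and 13 of 14 control cells had Calcrl below 1 TPM. Calcrl reached 1 TPM in only 1 of 66 cKO and 3 of 28 control CM-like cells, so these counts say little about Ramp1. At any TPM above 0, Calcrl and Ramp1 were together in 14 of 66 cKO and 9 of 28 control CM-like cells.

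Ramp3, the other adrenomedullin partner, was nearly absent. It was listed at 0 in all 21 endothelial-like cells, where 0 of 21 still permits a share of 14.3%, and in all 28 control CM-like cells. A single cKO CM-like cell held 2.56 TPM, beside 13.02 TPM of the antisense gene Gm11978 that overlaps Ramp3, and a single epicardial-like cell 29.1 TPM, and that epicardial-like cell also held Adm2 at 45.4 TPM.

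**Figure D3:**
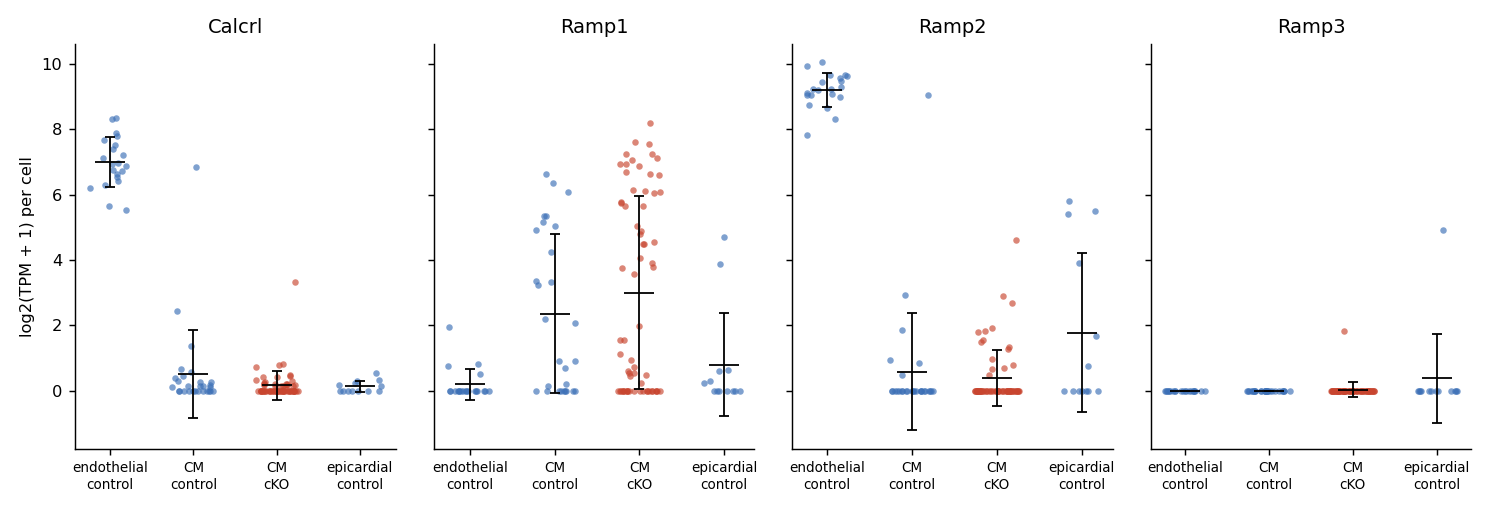
Calcrl, Ramp1, Ramp2 and Ramp3 in each cell, in log2(TPM + 1) on the vertical axis, by class and genotype (blue control, red cKO). Points are cells, the long dash is the mean and bars are 1 SD across cells. Endothelial-like cells hold Calcrl and Ramp2 throughout, Ramp1 lies mainly in CM-like cells, and the 1 control CM-like point near the endothelial-like range in the Calcrl and Ramp2 panels is the cell with both marker sets.

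Together in the same cell at 1 TPM or more, Calcrl and Ramp2 were found in 21 of 21 endothelial-like cells (lower bound 83.9%), in 1 of 28 control CM-like cells and in 0 of 66 cKO CM-like cells, where 0 of 66 still permits a share of 4.55%. Calcrl and Ramp1 were together in 1 of 21 endothelial-like cells, and Calcrl and Ramp3 in 0. The control CM-like cell with both receptor genes was the one with 11 endothelial markers. Among CM-like cells without it, the receptor pair was absent at this cutoff. A ligand was present at this cutoff in 55 of 66 cKO and 10 of 28 control CM-like cells, that cell included. In batch 2 the ligand counts were 28 of 33 cKO and 7 of 9 control cells. At any TPM above 0, Calcrl and Ramp2 were together in 7 of 66 cKO and 6 of 28 control CM-like cells. At 1 TPM or more they were also together in 1 of 5 erythroid-like and 1 of 7 unnamed control cells.

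Of the 6 genes, 5 passed the filter of a TPM above 0 in more than 10 CM-like cells, and Adm2 passed it through the cKO cells alone. A gene was called where the difference was at least 1 log2 unit in the same direction in both batches. Between genotypes in CM-like cells, 2 of the 6 genes, Adm and Adm2, were called higher in cKO, where 2.65% of all genes were called higher. None of the 6 was called lower, where 2.67% of all genes were. Between control endothelial-like and CM-like cells, 2 genes, Calcrl and Ramp2, were called higher, beside 9.92% of all genes. Ramp1 was called lower, beside 5.22% of all genes. These contrasts chose the 6 genes, so nothing is read from their counts.

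Of 10 other calcitonin family genes and partners, 5 passed the filter and 0 were called in either direction between genotypes. Their median difference was -0.43, with -0.08 in batch 1 and -0.83 in batch 2. Over all genes 2.65% were called higher and 2.67% lower. Pam, the enzyme that amidates adrenomedullin at its end, was at 6.93 ± 1.31 in cKO (SD, n = 66) and 6.31 ± 1.74 in control CM-like cells (SD, n = 28) on the log2(TPM + 1) scale. It was lower in endothelial-like cells, by -2.85 (-2.98 and -2.16 in batches 1 and 2). Gpr182, an endothelial receptor once proposed to bind adrenomedullin, was called higher there, by 3.54 (3.29 and 3.27). Ackr3, a decoy receptor that can bind adrenomedullin, was 2.30 higher in endothelial-like cells but 0.80 in batch 2 alone, and was not called.

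The cyclic AMP genes downstream of the receptor went in both directions. Of 25, 19 passed the filter, 3 were called higher and 2 lower in cKO CM-like cells, with a median of -0.12 (0.40 in batch 1, -0.55 in batch 2). Over all genes 2.65% were called higher and 2.67% lower. Higher were Prkacb, a catalytic subunit of protein kinase A, by 1.87, the phosphodiesterase Pde4a by 1.48 and Gnas, the stimulatory G protein alpha subunit, by 1.19. The cyclic AMP phosphodiesterases Pde4b and Pde4d were lower, at -1.79 and -1.43. In control endothelial-like against CM-like cells, 4 of 19 were called higher and 1 lower, beside 9.92% and 5.22% of all genes. Those higher were the cyclic AMP response factor Crem (3.74), the adenylyl cyclase Adcy4 (3.47), Pde4b (3.26) and the kinase regulatory subunit Prkar1a (2.24), and the adenylyl cyclase Adcy6 was lower (-1.14).

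All 19 hypoxia targets other than Adm passed the filter. In cKO CM-like cells 9 were called higher and 0 lower, beside 2.65% and 2.67% of all genes. The median difference of the 19 was 1.29 (1.81 in batch 1, 0.88 in batch 2) beside 0.04 over all genes. The largest differences were those of P4ha2, a collagen prolyl hydroxylase subunit, by 5.08, the disulfide oxidase Ero1l by 3.18, the vascular growth factor Vegfa by 2.54 and the oxygen sensor Egln1 by 2.32. In control endothelial-like against CM-like cells, 0 of 18 were called higher and 4 lower, beside 9.92% and 5.22% of all genes. Those lower were Bnip3, Pdk1, Slc2a1 and Pgk1, genes of mitophagy, pyruvate use, glucose uptake and glycolysis, by -4.34, -2.93, -2.89 and -0.99 pooled.

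ATF4 targets differed less evenly. Of 22, 20 passed the filter. In cKO CM-like cells 4 were called higher and 0 lower, beside 2.65% and 2.67% of all genes. The median of the 20 was 1.17 pooled, 1.43 in batch 1 and 0.03 in batch 2. Called were the lipoprotein receptor Vldlr (3.46), the stress factor Atf3 (2.07), the amino acid transporter Slc7a5 (1.59) and the serine enzyme Shmt2 (1.45). Trib3, a pseudokinase induced by ATF4, was 1.40 higher pooled but -1.09 in batch 2. Of the RefSeq promoter windows given for these lists, 14 of 16 hypoxia targets and 13 of 19 ATF4 targets held ACGTG or GCGTG, beside 43.8% of all windows. TGATGNAA was held by 7 of 19 ATF4 targets and 0 of 16 hypoxia targets, beside 3.97% of all windows.

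**Figure D4:**
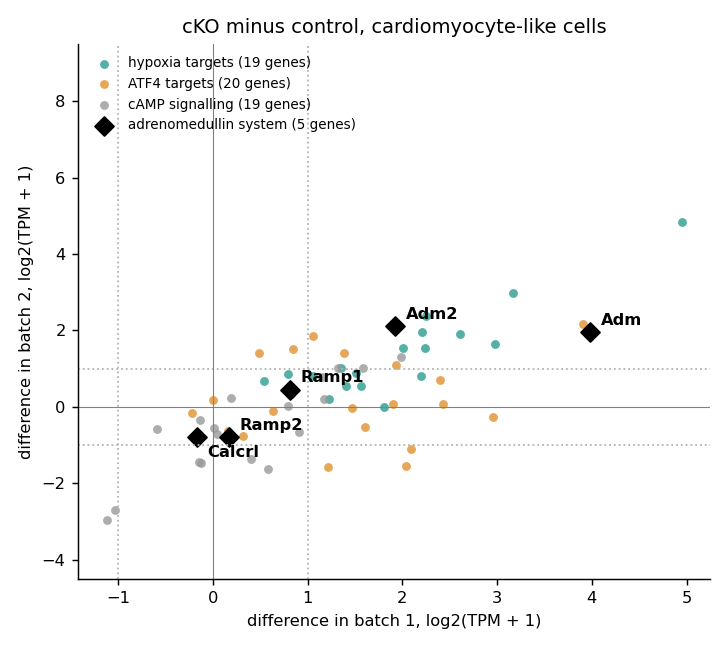
Difference between cKO and control CM-like cells in batch 1 (horizontal) and batch 2 (vertical), in log2(TPM + 1), for the adrenomedullin genes that passed the filter (black diamonds) and the genes of 3 lists (coloured points). Dotted lines mark 1 log2 unit. Adm and Adm2 lie past both lines at the upper right, where the call rule places every gene called higher, and Calcrl, Ramp1 and Ramp2 lie inside them.

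The genes whose levels were most like each member's differed between the ligands and the receptor. These correlations describe cells that share 2 genotypes, 2 batches and 5 clusters, and carry no test. Over 143 cells, Adm was closest to P4ha1 (Pearson's r 0.59), the microRNA host transcript Mir22hg (0.58), RP23-243H19.1 (0.56), P4ha2 (0.56) and Prune2 (0.56). Within the 66 cKO CM-like cells, its closest genes were P4hb (0.62) and P4ha1 (0.62), both parts of the collagen prolyl 4-hydroxylase, followed by Abi2 (0.56), Bud31 (0.55) and Anxa2 (0.54). A subunit of this enzyme thus led the list for Adm in both sets of cells.

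Adm2 was closest to Otub2 (0.46), Trib3 (0.45), the amino acid transporter Slc7a3 (0.45), Vldlr (0.43) and Gm3667 (0.43) over 143 cells. In the 66 cKO CM-like cells it was closest to Klhl6 (0.46), Trib3 (0.46), Tmem209 (0.46), Adssl1 (0.45) and Nbas (0.44). Trib3 was the gene common to both lists. Values near 0.45 in sparse data are weak, and Klhl6 reached 1 TPM in only 10 of these cells.

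Calcrl was closest to the endothelial genes Cd93 (0.95), Cdh5 (0.95), Eng (0.95) and Plvap (0.94), and to Mmp2 (0.92), over 143 cells. Ramp2 was closest to Mmp2 (0.92), Cd93 (0.92), Calcrl (0.91), Plvap (0.91) and Cdh5 (0.91). Ramp1 was closest to the fatty acid oxidation enzyme Acadm (0.51), the sodium-calcium exchanger Slc8a1 (0.50), Rassf5 (0.49), Yod1 (0.49) and Trim71 (0.47). The likeness of Calcrl and Ramp2 was one between classes: within the 21 endothelial-like cells their r was 0.01. There the genes closest to Calcrl included Exoc3l2 (0.76), Pcmt1 (0.74), Tubb2a (0.73) and Ppcdc (0.71), and those closest to Ramp2 were Snap47 (0.73), Tuba1a (0.72), Mfap3 (0.70), Kat2a (0.68) and Tmx3 (0.68). Ramp2 also had an r of 0.55 with the number of detected genes in those cells, against 0.24 for Calcrl.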

How the data were processed

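Libraries were made by Smart-seq2 from single cells of both genotypes. The deposited values were TPM per gene, made by the authors with Salmon on mm10 as their processing notes and methods state; the Salmon version is not given in the sources used here. The depth of a cell is unknown. Of 170 labelled samples, 143 had a column and 27 were not analysed here. Labels gave genotype and sequencing batch. Replicate numbers followed accession order.

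TPM was taken as log2(TPM + 1). Cells were clustered by Ward linkage on z-scored markers into 5 clusters, each named from at least 3 markers of a class at 1 log2 unit above the other cells. No doublet caller was run. Genes with a TPM above 0 in more than 10 cells were compared. The contrast, call and correlation steps were checked on the real values with planted changes. The changes were planted in cKO cells, in genes found in nearly all of them, so sparse genes such as Adm2 were not covered. Named genes were all 6 members, Dgcr8, up to 4 called genes per list and direction, and the 5 genes with the highest r (1 of them is not reported here); Pam, Ackr3, Trib3, Xist, Ddx3y and the overlapping genes (Vps25, Gm28863, Gm11978) were chosen after their values were seen. Members, lists and rules were chosen with earlier results of these data known. Python 3 with numpy, pandas, scipy and matplotlib was used.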

Additional observations from a re-analysis of the deposited data

How the results depend on the processing

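No paired analysis was possible because titles number individual cells, not embryos, and nothing was tested. The ligand differences between genotypes in CM-like cells moved by less than 1 SD across cells under every alternative: pseudocounts of 0.1 and 10, the ratio of mean TPM (Adm only), 4 or 6 clusters, clustering on 1000 variable genes, other scaling, cell filters, and either batch. Adm ranged from 1.95 (batch 2 only) to 4.69 (pseudocount 0.1), and Adm2 from 0.94 (pseudocount 10) to 3.27 (pseudocount 0.1). The share of cKO CM-like cells with Adm was 90.9% at any TPM above 0 (interval 81.3 to 96.6%), 75.8% at 1 TPM and 71.2% at 10 TPM. The shares at 1 and 10 TPM lay below that interval. Of the values that answer a comparison, 77 stayed within that spread, interval or a factor of 1.5 and 16 did not, and none of the 5 differences among them (Adm and Adm2 between genotypes, Calcrl, Ramp1 and Ramp2 between classes) changed sign. Other differences did: Ramp2 between genotypes, -0.20, was 0.17 in batch 1, 0.17 without cells holding an endothelial marker and 0.12 without the cell with both marker sets, and Adm between classes, 0.22, was -1.66 in batch 2. At a pseudocount of 10 Adm2 was no longer called (0.92 and 0.95 in batches 1 and 2), nor was Ramp1 between classes (-0.93 and -0.79), an alternative chosen after seeing the data. For endothelial-like minus CM-like control cells, Calcrl was 8.87 at a pseudocount of 0.1, 3.61 at 10, 5.05 as a ratio of mean TPM and 4.09 with clusters from variable genes. Ramp2 was 11.4, 5.65, 5.01 and 5.76 in the same order. Ramp1 was -6.23 as a ratio of mean TPM. Clustering on variable genes joined epicardial-like cells to the endothelial-like cluster (37 cells), and 67.6% of it held Calcrl and Ramp2 together. With a pseudocount of 10, called genes numbered 144 higher and 93 lower between genotypes, against 401 and 403, and 504 higher and 282 lower between classes, against 1303 and 686; called ATF4 targets fell from 4 to 1. Leaving out the cell with both marker sets, chosen after seeing the data, changed none of these by more than 1 SD. The ratio of mean TPM between genotypes, -4.28 for Calcrl and -4.59 for Ramp2, includes that 1 control cell. Read depth is unknown, so zeros and small TPM values carry no counting limit, and 9 control CM-like cells in batch 2 set the narrower comparison.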
